A study of Mus musculus with 6 samples.

Results

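The 10 genes described here are the 4 myogenic regulatory factors *Myf5*, *Myod1*, *Myog* and *Myf6*, the muscle fusion proteins *Mymk* and *Mymx*, the MEF2 factors *Mef2a*, *Mef2c* and *Mef2d*, and the bHLH repressor *Msc*. They were taken by gene symbol from 54115 genes with a transcript in the libraries. Satellite cells, which are the stem cells of muscle, were sorted from uninjured hindlimb muscle as α7-INTEGRIN and CD34 positive cells that lacked CD31, CD11b, SCA-1 and CD45. The mice were C57BL/6J, of 6 to 8 weeks of age. Pax7WT mice, the control littermates, carry wild-type *Pax7*. Pax7KR mice are homozygous for an edited allele in which arginine replaces a lysine of PAX7 that lies between the paired domain and the homeodomain. The edit is germline, so PAX7 was altered from development onward in every cell that makes it. Each genotype had 3 biological replicates, and 15 ng of RNA went into each library. The comparison asks whether the transcripts of these factors differ in satellite cells when this lysine of PAX7 cannot be acetylated.

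The myogenic regulatory factors are bHLH proteins that pair with E proteins and bind E-boxes in the regulatory regions of muscle genes. *Myf5* and *Myod1* commit cells to the muscle lineage, *Myog* drives terminal differentiation, and *Myf6* (MRF4) acts in late differentiation and in fibres. MEF2 proteins are MADS-box factors that act with the bHLH proteins on muscle genes. Musculin, the product of *Msc*, binds E-boxes and represses. Myomaker and myomixer, from *Mymk* and *Mymx*, are the membrane proteins that fuse myoblasts into fibres. *Myf5* is a known target of PAX7, and quiescent satellite cells are known to hold *Myf5* transcripts while *Myog* and the fusion genes come on after activation.

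The libraries held between 17822367 and 27908054 estimated reads. In the sorted cells, summed levels of 12 satellite cell markers (among them *Pax7*, *Itga7* and *Cd34*) lay between 4810 and 5450 TPM (transcript abundance scaled to the library and corrected for transcript length). *Pax7* was at 541 ± 42.5 TPM in Pax7WT and 543 ± 36.4 TPM in Pax7KR (SD, n = 3 each), and the estimates carry no base calls, so the edit itself was not read. Pax7KR replicate 2 stood apart. Its Y-linked transcripts were low, with *Ddx3y* at 24.4 TPM against 53.5 to 61.9 TPM in the other 5 libraries. *Eif2s3y* was at 42.6 TPM against 86.5 to 115 TPM. *Xist* was low in every library, at 0.624, 0.272 and 1.08 TPM in Pax7WT and 0.042, 0.0844 and 0.0865 TPM in Pax7KR. Each Pax7KR value of *Xist* was below each Pax7WT value. These genes were chosen after their values were seen, and the sex of the mice is not in the labels. Values without this library are given below for the 6 genes whose log2 fold changes it moved by over 1.5 times (*Myf5*, *Myf6*, *Msc*, *Myog*, *Mymk* and *Mef2c*). Over all 17152 genes that passed the filter of 5 or more reads in 2 or more libraries, edgeR's quasi-likelihood test called 0 genes at an adjusted p under 0.1, with 803 genes (4.68%) at an unadjusted p under 0.05. DESeq2 called 30 genes (0.175%), or 45 genes (0.262%) when average transcript length entered as an offset.

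Of the 10 genes, 9 passed the filter and *Mymx* did not. None of the 9 was called by edgeR (background 0%) or by DESeq2, and 1 of them, *Mef2a*, had an unadjusted p under 0.05 in edgeR, or 11.1% against the background of 4.68%. *Mef2a* was also the 1 gene whose 3 Pax7KR values in CPM (counts scaled to the normalized library size) did not overlap the 3 Pax7WT values, against 10.3% of all genes tested. The 9 genes had 4 positive and 5 negative log2 fold changes with a median of −0.02, where the median over all genes tested was −0.004.

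The levels of the 10 genes spanned a wide range within each genotype and kept nearly the same order in both. In Pax7WT cells, *Myf5* was highest with a mean of 402 TPM, followed by *Msc* (178 TPM), *Myod1* (147 TPM), *Mef2d* (76.7 TPM) and *Mef2a* (41.1 TPM). A gap of 7.87-fold in mean TPM separated *Mef2a* from the next gene, *Myf6* (5.22 TPM), and *Myog* (2.74 TPM), *Mef2c* (1.92 TPM), *Mymk* (0.412 TPM) and *Mymx* (0.033 TPM) came below it. *Msc* and *Myod1* overlapped across Pax7WT libraries, as did *Myf6* with *Myog* and *Myog* with *Mef2c*. In Pax7KR cells the order was *Myf5* (435 TPM), *Msc* (197 TPM), *Myod1* (139 TPM), *Mef2d* (73.2 TPM) and *Mef2a* (37.5 TPM), each apart from the next. There *Myog* (4.52 TPM) and *Myf6* (4.51 TPM) could not be ranked, and *Mef2c* followed at a mean of 1.72 TPM. *Mef2c* was apart from *Myf6* but lay within the Pax7KR range of *Myog* (1.42 to 8.22 TPM). *Mymk* (0.814 TPM) and *Mymx* (0.22 TPM) overlapped at the foot of the order. Over all libraries, 98.4% of the genes tested had a lower mean TPM than *Myf5*, 96.5% lower than *Msc* and 95.1% lower than *Myod1*, against 34.6% for *Myog* and 16.3% for *Mymk*. The TPM of *Msc* include Msc-202 and Msc-203, transcripts that retain an intron. Its main coding transcript, Msc-201, was at 72.2, 74.8 and 88.9 TPM in Pax7WT and 105, 80.1 and 90.2 TPM in Pax7KR. In each library Msc-201 alone was below *Myod1*, so the rank of *Msc* above *Myod1* holds for summed transcripts only.

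**Figure D1:**
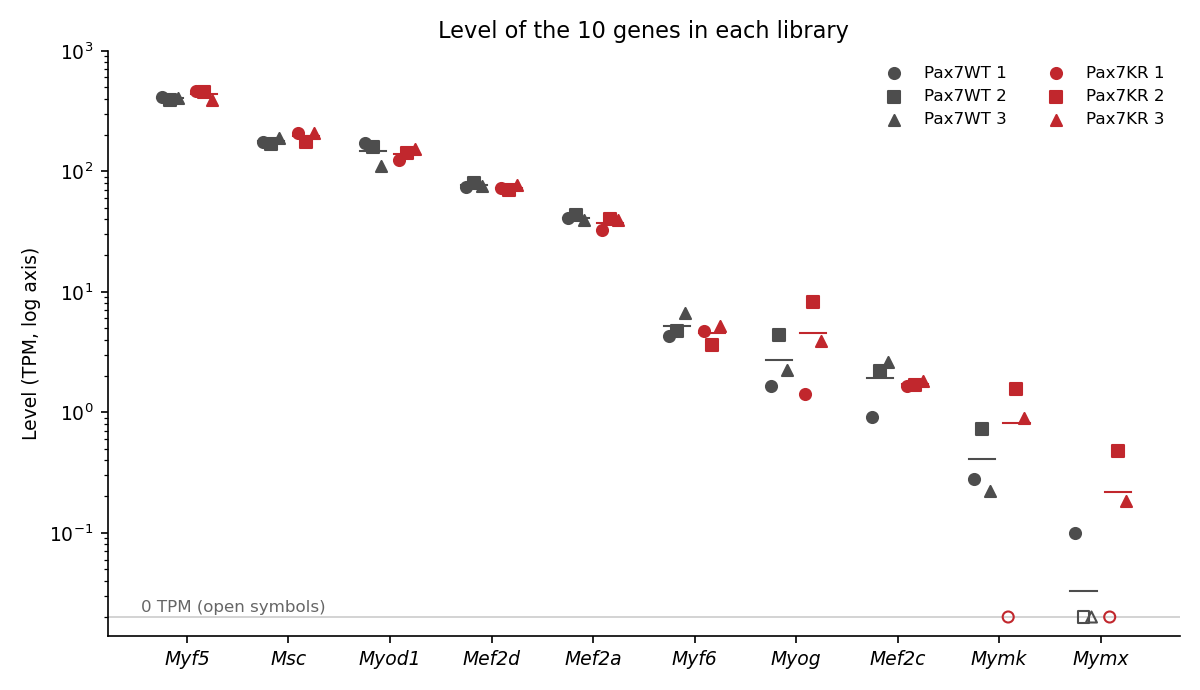
Level of each of the 10 genes in TPM (log axis) in the 6 libraries, ordered by the mean over all libraries. Symbols are single libraries (grey, Pax7WT; red, Pax7KR), horizontal lines are genotype means, and open symbols on the bottom line are libraries at 0 TPM; 5 genes lie above 30 TPM in every library and 5 lie below 10 TPM.

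*Myf5* (chr10:107482908-107486134 of GRCm38, minus strand) codes for the bHLH factor that marks committed satellite cells. Its counts were 436, 413 and 434 CPM in the Pax7WT libraries and 456, 448 and 402 CPM in the Pax7KR libraries. The highest 2 and the lowest of the 6 values were all Pax7KR, so the Pax7KR range enclosed the Pax7WT range. The means were 428 ± 12.8 and 435 ± 29.0 CPM (SD, n = 3). In edgeR the log2 fold change came to 0.02 with an SE of 0.07 and an adjusted p of 0.998. Its 95% interval ran from −0.12 to 0.17, which is 0.921-fold to 1.12-fold. Leaving out 1 library at a time gave values between −0.01 and 0.08 (0.003 without Pax7KR replicate 2), so its sign was not fixed.

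*Myf6* lies 6718 bases from *Myf5* on the same strand, at chr10:107492853-107494737, and shares with it the known MRF4-Myf5 locus. It was at 2.83, 3.16 and 4.43 CPM in Pax7WT and 2.93, 2.26 and 3.36 CPM in Pax7KR, from 54 to 91 estimated reads per library. The groups overlapped, with a log2 fold change of −0.29 in edgeR (SE 0.28, 95% interval −0.89 to 0.32, adjusted p = 0.998). It was −0.14 without Pax7KR replicate 2 and −0.07 without Pax7WT replicate 3. The flanking gene on the other side of *Myf5*, *Lin7a*, was at 44.4 and 50.2 CPM, with a log2 fold change of 0.18 (unadjusted p = 0.192 from edgeR).

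*Myod1* (chr7:46376474-46379099, plus strand) codes for the factor that rises as satellite cells activate. It was at 167, 157 and 108 CPM in Pax7WT and 114, 134 and 148 CPM in Pax7KR. The Pax7KR values all lay inside the Pax7WT range, and Pax7WT replicate 3 was the lowest of the 6. In edgeR the difference was −0.13 on the log2 scale (SE 0.20, 95% interval −0.64 to 0.38, adjusted p = 0.998). Without Pax7WT replicate 3 it was −0.30 with an unadjusted p of 0.0139 and an adjusted p of 0.937 from edgeR, and without Pax7WT replicate 1 it was −0.01. The ratio of *Myf5* to *Myod1* in TPM was 2.38, 2.47 and 3.68 in Pax7WT and 3.78, 3.22 and 2.53 in Pax7KR (exact permutation test, two-sided, p = 0.5; 0.778 adjusted over 10 ratios and shares, where 0.1 is the smallest p that 3 against 3 allows). *Myf5* took between 69.7% and 78.2% of the summed MRF level, *Myod1* between 20.7% and 29.2%, and *Myog* with *Myf6* the remainder. The summed level of the 4 MRFs was 556 ± 32.6 TPM in Pax7WT and 583 ± 29.1 TPM in Pax7KR (SD, n = 3, exact permutation p = 0.4, 0.778 adjusted). The 21 genes of the immediate early and dissociation response summed to 35200, 21600 and 36300 TPM in Pax7WT and 29600, 33700 and 29300 TPM in Pax7KR, and their part in the level of *Myod1* was not tested.

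*Msc* (chr1:14753346-14755992, minus strand) codes for the repressor musculin. It was at 110, 110 and 124 CPM in Pax7WT and at 133, 110 and 132 CPM in Pax7KR. Replicates 1 and 3 of Pax7KR were the highest of the 6, while replicate 2 lay with the Pax7WT libraries. Its log2 fold change in edgeR was 0.13 (SE 0.08, 95% interval −0.05 to 0.30, adjusted p = 0.992). Without Pax7KR replicate 2 it was 0.21, with an unadjusted p of 0.017 and an adjusted p of 1 from edgeR, and without Pax7KR replicate 1 it was 0.08. Of its estimated reads, 58.9% to 68.0% lay on the main coding transcript Msc-201, and 12.4% to 15.2% and 15.6% to 22.1% lay on Msc-202 and Msc-203, which retain an intron and had log2 fold changes of −0.01 (SE 0.11) and 0.15 (SE 0.19). The whole gene is overlapped on the other strand by *Gm9947*, and 19.9% of the 31-base sequences of *Msc* transcripts also occur in *Gm9947*. *Gm9947* was at 15.7 CPM in Pax7WT and 14.3 CPM in Pax7KR. The library kit keeps strand, but the strand setting of the quantification is not given in the sources used here, so reads of the 2 genes may not be fully separated.

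*Myog* and the fusion genes were present at few reads and differed most among libraries. *Myog* (chr1:134289989-134292548, plus strand), which codes for myogenin, had 36, 63 and 37 estimated reads in Pax7WT and 25, 152 and 66 in Pax7KR. As CPM this was 1.32, 3.56 and 1.80 against 1.09, 6.37 and 3.12. The lowest and the highest value were both Pax7KR. The difference was 0.68 on the log2 scale (SE 0.67, 95% interval −0.93 to 2.29, adjusted p = 0.998 from edgeR). Without Pax7KR replicate 2 it was −0.07, and without Pax7WT replicate 2 it was 1.18, so its direction rested on 1 library.

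The 250 bases before the start of *Myog* in RefSeq (GRCm38.p6, plus strand) are shown because they are the control region of the MRF gene that differed most between libraries. Capitals mark E-boxes (CANNTG, a palindrome that reads the same on both strands) and a pair of facing homeodomain cores, TAATNNNATTA. The homeodomain of PAX7 recognises such cores, as do many other homeodomain proteins.
*Myog*, chr1:134289754-134290003: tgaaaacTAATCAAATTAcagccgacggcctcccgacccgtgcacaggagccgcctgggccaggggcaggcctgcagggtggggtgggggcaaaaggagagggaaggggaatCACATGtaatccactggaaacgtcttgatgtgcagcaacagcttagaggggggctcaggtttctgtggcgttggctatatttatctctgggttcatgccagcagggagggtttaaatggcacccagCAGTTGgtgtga
E-boxes began at positions −138 and −12 relative to the start, and the paired homeodomain motif began at position −243. Of 32851 RefSeq promoter windows of the same length, 66.2% held at least 1 E-box, 31.8% held 2 or more, and 0.5% held the paired motif with 3 bases between its cores. The windows of *Myf5*, *Mef2a* and *Mef2d* held 0 matches to these motifs or to TAATNNATTA. These are matches of letters and not measured binding sites.

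*Mymk* (chr2:27061636-27072179, minus strand), the myomaker gene, had 5, 10 and 3 estimated reads in Pax7WT and 0, 27 and 14 in Pax7KR. In Pax7KR replicate 1 the value of 0 allows up to 3 reads, or 0.131 CPM, which is about the level of Pax7WT replicate 3 (0.146 CPM). The log2 fold change of 1.04 had an interval from −1.31 to 3.38 (adjusted p = 0.998 from edgeR) and was 0.17 without Pax7KR replicate 2. *Mymx* (chr17:45600971-45602102, minus strand), the gene of myomixer, also called myomerger or minion, had 1, 0 and 0 reads in Pax7WT and 0, 4 and 1 in Pax7KR, and was not tested. No difference between genotypes was detected for *Mymk*, and *Mymx* had too few reads to test.

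Pax7KR replicate 2 was highest in *Myog*, *Mymk* and *Mymx*, and among the other libraries Pax7WT replicate 2 and Pax7KR replicate 3 came next in *Myog* and *Mymk*. The same 3 libraries were highest in *Actc1*, the cardiac actin of developing muscle, with 2.78 TPM in Pax7KR replicate 2, 1.09 TPM in Pax7WT replicate 2 and 1.05 TPM in Pax7KR replicate 3 against 0.401 TPM or less elsewhere. They were also highest in *Myh3*, embryonic myosin heavy chain, at 0.419, 0.244 and 0.119 TPM against 0.0134 TPM or less. *Tnnt2*, cardiac troponin T, was highest in Pax7KR replicate 2 (2.11 TPM) and Pax7WT replicate 2 (1.02 TPM) but was at 0 TPM in Pax7KR replicate 3. These 3 genes were picked from 28 differentiation targets after their values were seen. Over the whole list, Pax7KR replicate 2 was the highest library for 8 of the 28 genes and the lowest for 3 (*Tnnt1*, *Chrna1* and *Rbm38*), while Pax7WT replicate 3 and Pax7KR replicate 1 were each the highest for 7. The sum of 20 markers of mature fibres did not follow this order, at 300 TPM in Pax7KR replicate 2 and 317 to 356 TPM in the other libraries. The most abundant of them were *Actn3*, *Pygm* and *Atp2a1*, at 108, 60.9 and 29.8 TPM on average. Single markers differed, as *Actn3* was lowest in Pax7KR replicate 2 (82.7 TPM) and *Eno3* was highest there (30.4 TPM). A share of differentiating cells and the amount of transcript in each cell cannot be told apart in bulk libraries.

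**Figure D2:**
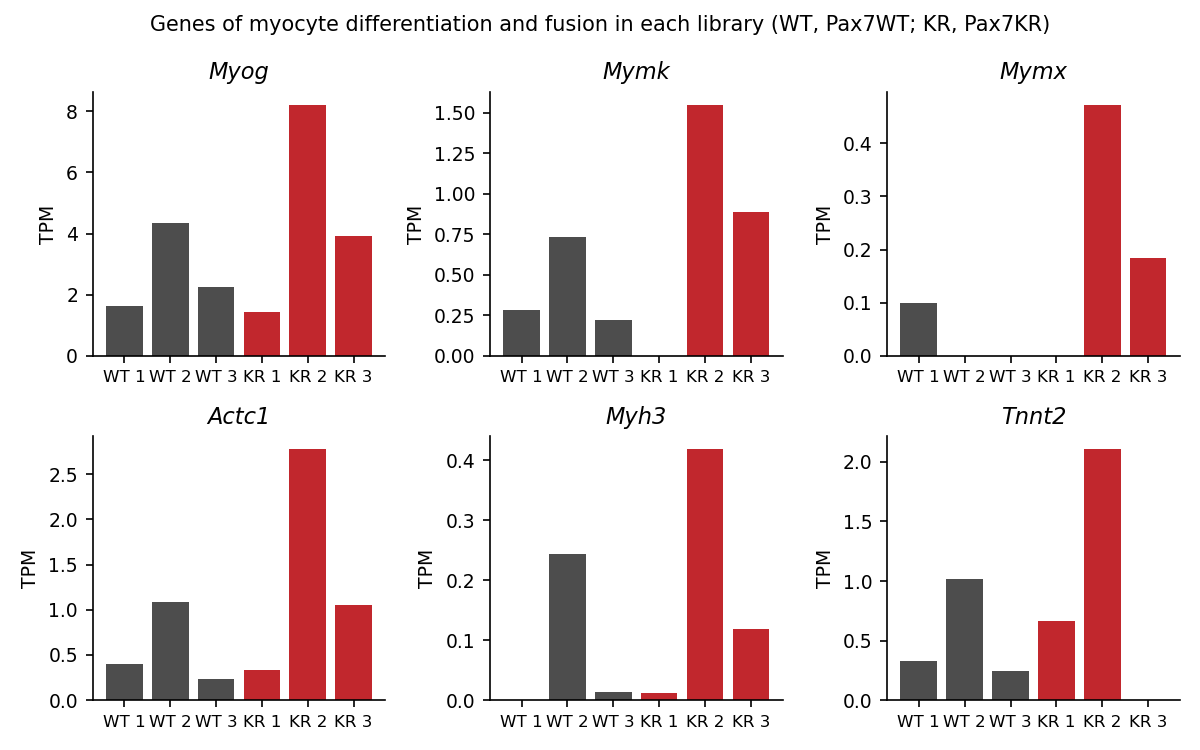
Bars give the level in TPM, from 0, of *Myog*, *Mymk*, *Mymx*, *Actc1*, *Myh3* and *Tnnt2* in each of the 6 libraries (grey, Pax7WT; red, Pax7KR), with a separate scale for each gene. Pax7KR replicate 2 is highest for all 6 genes, and the genotypes overlap for each; the lower 3 were picked from 28 differentiation targets after their values were seen.

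Among the MEF2 factors, *Mef2d* took between 62.5% and 68.2% of the summed level, *Mef2a* between 30.3% and 36.0% and *Mef2c* between 0.789% and 2.22%. No difference between genotypes was detected in these shares (exact permutation p between 0.7 and 1.0). *Mef2d* (chr3:88142372-88172086, plus strand) was at 186, 193 and 182 CPM in Pax7WT and 171, 170 and 189 CPM in Pax7KR. Replicates 1 and 2 of Pax7KR lay below all Pax7WT libraries and replicate 3 lay among them. Its log2 fold change was −0.08 in edgeR (SE 0.06, 95% interval −0.22 to 0.05, adjusted p = 0.992).

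*Mef2a* (chr7:67231163-67372858, minus strand) was at 114, 116 and 108 CPM in Pax7WT and 80.4, 101 and 106 CPM in Pax7KR, so each Pax7KR value was below each Pax7WT value. The difference was −0.24 on the log2 scale (SE 0.09, 95% interval −0.44 to −0.04), with an unadjusted p of 0.0249 and an adjusted p of 0.992 from edgeR. Pax7KR replicate 1 was the lowest library, and without it the log2 fold change was −0.13 with an unadjusted p of 0.106 from edgeR. In TPM the values were 41.1, 43.1 and 39.2 against 32.5, 40.4 and 39.7 and the groups overlapped. When average transcript length entered as an offset, the log2 fold change was −0.19 (unadjusted p = 0.0745 from edgeR and 0.0927 from DESeq2). *Lysmd4*, which overlaps *Mef2a* on the other strand, was at 11.4 CPM in Pax7WT and 12.6 CPM in Pax7KR, and 5.31% of the 31-base sequences of *Mef2a* occur in transcripts of other genes.

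**Figure D3:**
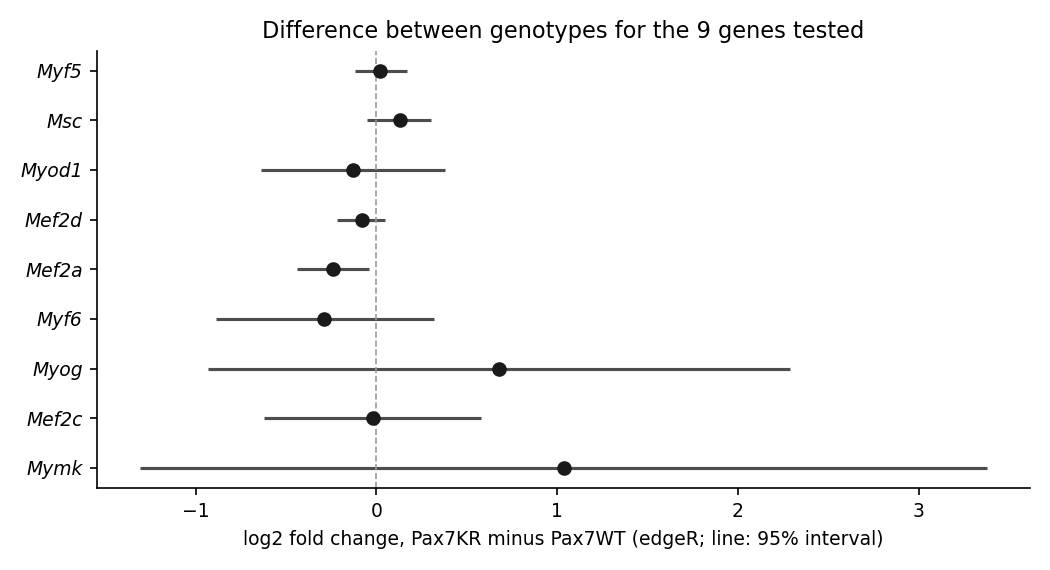
Points give the log2 fold change (Pax7KR minus Pax7WT, edgeR) and lines its 95% interval for the 9 genes tested, in order of level from *Myf5* at the top to *Mymk*. The interval of *Mef2a* (−0.44 to −0.04) alone leaves out 0, before adjustment over all genes, and the intervals of *Myog* and *Mymk* are the widest.

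*Mef2d* and *Mef2a* each contain a pair of neighbouring coding exons of which a transcript uses 1 or the other. The choice between such exons is a known difference between MEF2 forms of muscle and of other tissues. The 3 exons printed here are shown because they define the forms counted. Each is printed on the coding strand from the GENCODE transcripts of GRCm38, with no base singled out.
*Mef2d*, first form, chr3:88158034-88158171, plus strand, 138 bases: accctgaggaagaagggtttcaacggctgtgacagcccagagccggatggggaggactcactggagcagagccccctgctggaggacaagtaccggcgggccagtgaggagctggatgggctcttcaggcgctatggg
*Mef2d*, second form, chr3:88158221-88158355, plus strand, 135 bases: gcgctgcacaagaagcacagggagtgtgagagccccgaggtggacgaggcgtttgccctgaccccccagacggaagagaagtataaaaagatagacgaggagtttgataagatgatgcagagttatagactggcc
*Mef2a*, first form, chr7:67268269-67268400, minus strand, 132 bases: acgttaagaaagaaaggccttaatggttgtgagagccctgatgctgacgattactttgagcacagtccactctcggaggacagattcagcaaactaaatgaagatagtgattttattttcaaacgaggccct
In a global alignment the first forms of *Mef2d* and *Mef2a* matched at 54.5% of aligned positions, and the first and second forms of *Mef2d* at 51.4%.

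Transcripts with the first exon form dominated both genes. In *Mef2d* they made up 86.6% to 92.2% of the gene's TPM over the 6 libraries, and the second form 1.18% to 2.76%. The rest lay on short transcripts outside both forms, mostly Mef2d-207 (482 bases), with 2.74 to 7.01 TPM from 12.1 to 27.5 estimated reads. By estimated reads the first form of *Mef2d* held more, such as 5020 of 5064 in Pax7WT replicate 1. In *Mef2a* the first form made up 83.2%, 77.0% and 81.2% in Pax7WT and 75.8%, 75.6% and 80.3% in Pax7KR. The genotypes overlapped in these 3 shares (exact permutation p from 0.2 to 1.0). A further small coding exon, of 24 bases in *Mef2a* (chr7:67244521-67244544) and 21 bases in *Mef2d* (chr3:88161781-88161801), was in 33.1% to 39.5% of *Mef2a* and 0.261% to 3.69% of *Mef2d* by TPM.

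**Figure D4:**
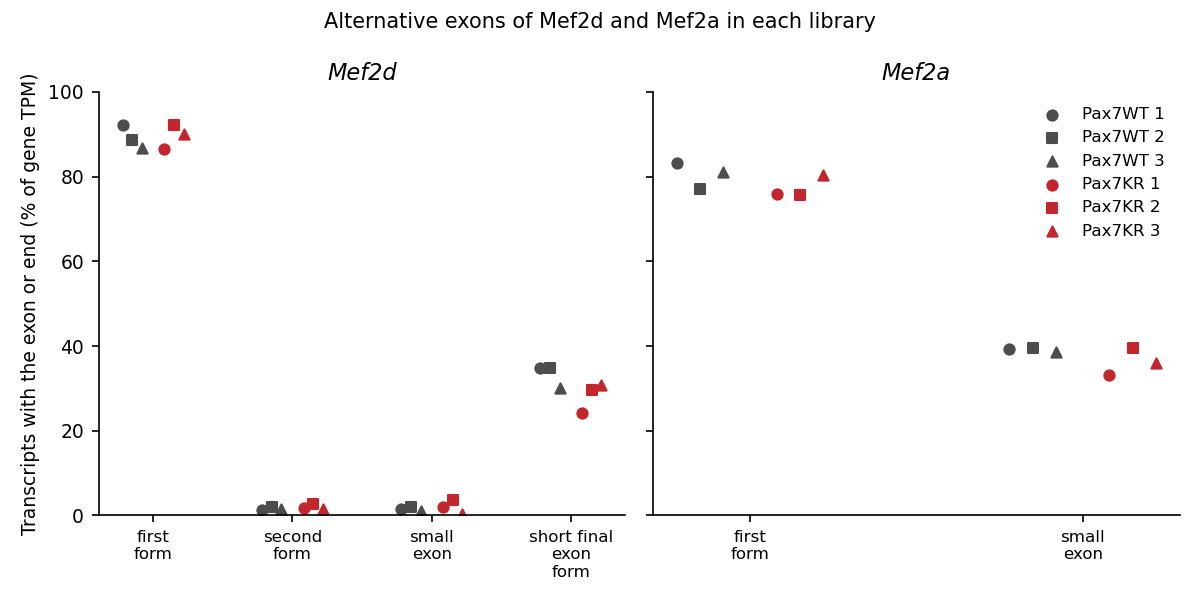
Share of each gene's TPM, in percent, on transcripts with the first exon form or the small exon and, for *Mef2d*, with the second exon form or ending in the short final exon. Symbols are single libraries (grey, Pax7WT; red, Pax7KR), and the genotypes overlap in every share.

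Between single transcripts, 64 of the 10 genes are in the annotation, 39 had at least 1 read in a library and 24 passed the filter. edgeR called 0 of the 24 at an adjusted p under 0.1 (background 0% of 54853 transcripts) and 2 had an unadjusted p under 0.05 (8.33%, against 4.01% of all transcripts). DESeq2 called 1, against 1.31% of all. In 2 of the 24, Mef2c-212 and Mef2a-208, the genotypes did not overlap in CPM, or 8.33% against 9.86% of all. The *Mef2d* transcript with a short final exon, Mef2d-204, took 34.8%, 34.7% and 30.2% of the gene's TPM in Pax7WT and 24.2%, 29.5% and 30.8% in Pax7KR. Its log2 fold change was −0.35 (SE 0.14, unadjusted p = 0.0387, adjusted p = 1 from edgeR), and the groups overlapped. The main *Mef2d* transcript, Mef2d-201, had a log2 fold change of 0.01 (SE 0.06).

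The transcript that DESeq2 called belongs to *Mef2c* (chr13:83504034-83667080, plus strand). At gene level the genotypes overlapped, at 3.38, 5.53 and 4.04 CPM against 4.90, 5.03 and 2.79 CPM. The difference was −0.02 on the log2 scale (SE 0.28, 95% interval −0.62 to 0.58, adjusted p = 0.998 from edgeR), and −0.16 without Pax7KR replicate 2. Mef2c-212, whose first exon (chr13:83573607-83573774) is the downstream start of the gene, had 67.3, 44.8 and 48.0 estimated reads in the Pax7WT libraries and 0 in each Pax7KR library. A value of 0 allows up to 3 reads, or 0.133 CPM on average in Pax7KR, against a mean of 2.45 CPM in Pax7WT. Its adjusted p was 0.483 from edgeR (unadjusted 0.000223) and 4.38e-08 from DESeq2. The transcript passed the filter only through the Pax7WT libraries, where it was high, so these p-values are not independent support for a difference.

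Summed over transcripts by first exon, the downstream start had 67.3, 44.8 and 49.0 estimated reads in Pax7WT and 0, 4.12 and 0 in Pax7KR. The upstream start, at 83504240, had 24.7, 36.6 and 6.01 against 89.1, 86.0 and 50.3. As a share of the gene's TPM the downstream start was at 73.6%, 31.3% and 25.3% against 0%, 6.5% and 0%, and the upstream start was at 26.4%, 24.8% and 2.93% against 68.6%, 60.4% and 42.4%. The middle start, at 83524535, was at 0%, 12.1% and 16% against 31.4%, 33.0% and 57.6% of the TPM, while its estimated reads overlapped (0, 12.4 and 17.8 against 22.9, 29.9 and 8.68). In Pax7WT replicates 2 and 3 these shares do not make up the whole gene. Mef2c-231, a transcript of 702 bases outside the 3 groups, held 0.707 and 1.46 TPM there, from 4.26 and 10.2 estimated reads. It had 0 reads in the other libraries, so it lowered the shares of the starts in Pax7WT only. None of the 3 shares overlapped between genotypes. The exact permutation p was 0.1 for each, the smallest possible (0.333 adjusted over 10 exons and starts), and these starts were looked at after the transcript estimates were seen. Each library had only 59 to 120 *Mef2c* reads, which salmon divided among 31 transcripts that share most of their sequence. For example, Mef2c-201 and Mef2c-202, which differ little in length (6217 and 6277 bases), traded places from library to library. Both begin at the upstream start, so their trade does not change the sums by start and does not bear on the division between starts. Mef2c-201 had 24.7, 89.1 and 43.5 reads in Pax7WT replicate 1 and Pax7KR replicates 1 and 3 and 0 in the others, where Mef2c-202 had 36.6, 6.01 and 86.0. The estimates give no error for the division of reads among transcripts or starts, and which exons the reads covered was not analysed here.

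**Figure D5:**
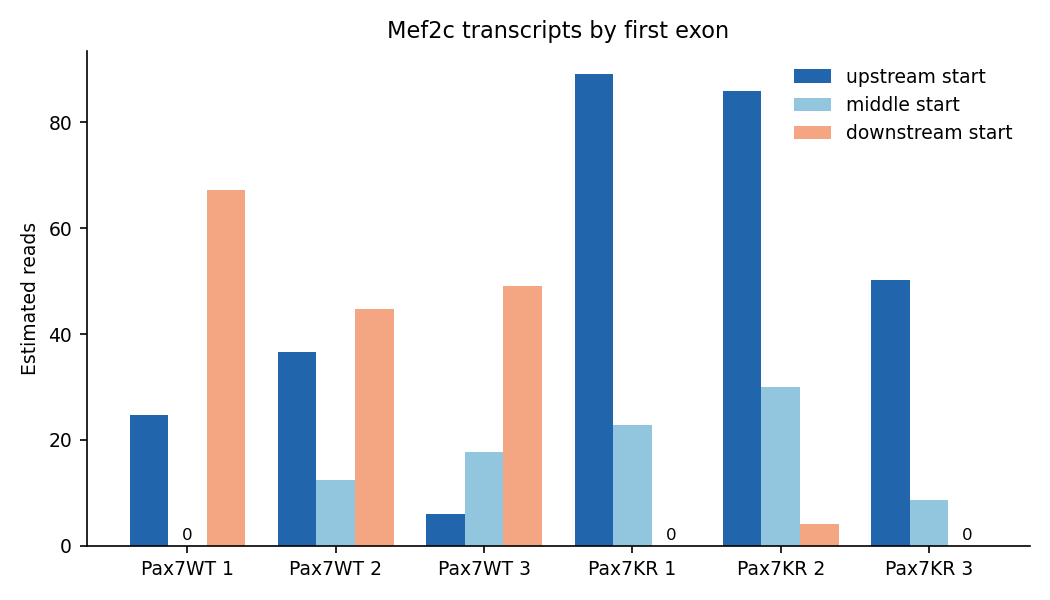
Estimated *Mef2c* reads per library on transcripts that begin at the upstream, middle or downstream first exon. The downstream bars are at 44.8 or more in the 3 Pax7WT libraries and at 4.12 or less in the 3 Pax7KR libraries, and the upstream bars are higher in each Pax7KR library than in any Pax7WT library.

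RefSeq windows near the upstream and downstream starts (250 bases, GRCm38.p6, plus strand) are shown because the estimates at these starts did not overlap between genotypes, with E-boxes in capitals. The downstream window ends at the base before the downstream first exon. The upstream window ends before the first annotated base of the gene, 83504034, and so does not adjoin the first exon at 83504240.
*Mef2c*, RefSeq start at 83504034, chr13:83503784-83504033: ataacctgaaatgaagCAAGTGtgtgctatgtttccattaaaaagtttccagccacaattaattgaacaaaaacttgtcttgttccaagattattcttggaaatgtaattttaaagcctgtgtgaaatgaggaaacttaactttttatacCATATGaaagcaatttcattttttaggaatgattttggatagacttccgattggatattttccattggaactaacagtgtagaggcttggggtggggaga
*Mef2c*, RefSeq start at 83573607, chr13:83573357-83573606: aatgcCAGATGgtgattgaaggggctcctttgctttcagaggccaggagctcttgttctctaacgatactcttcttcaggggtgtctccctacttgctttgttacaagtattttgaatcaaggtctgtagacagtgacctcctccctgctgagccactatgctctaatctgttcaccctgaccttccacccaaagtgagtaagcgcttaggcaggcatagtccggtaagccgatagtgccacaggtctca
The upstream window held E-boxes from positions −234 and −100 and was 33.6% G or C. The downstream window held 1 E-box, from position −245, and was 49.6% G or C. Neither held a paired homeodomain motif. A window at another RefSeq start of *Mef2c*, at 83523656, held 1 copy of TAATTTATTA from position −98, a motif (TAATNNATTA) found in 0.4% of all windows.

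*Mef2c* is also made in endothelial, smooth muscle and some immune cells. The 12 endothelial markers, among them *Pecam1*, *Cdh5* and *Kdr*, summed to 193, 213 and 275 TPM in Pax7WT and 293, 352 and 229 TPM in Pax7KR. Of the 12, 11 had a positive log2 fold change (median 0.39). The most abundant were *Fabp4* and *Tek*, at 90.6 and 78.8 TPM on average, against 16.8 TPM for *Pecam1*. The 10 smooth muscle and pericyte markers, among them *Myh11*, *Acta2* and *Rgs5*, summed to 818, 909 and 826 TPM against 873, 883 and 742 TPM. All 10 had a negative log2 fold change (median −0.14). *Notch3* was the most abundant at 501 TPM on average, against 149 TPM for *Acta2*, 16.7 TPM for *Rgs5* and 8.38 TPM for *Myh11*. Which cells the transcripts in these sums came from was not tested. The 12 immune markers, among them *Ptprc*, *Itgam* and *Adgre1*, summed to 22.5 to 27.2 TPM, with 1 of them at 0 in every library. Over all genes tested, 8399 had positive and 8753 negative log2 fold changes, with a median of −0.004. Markers of a list were read in the same libraries, so their directions are not separate observations. No marker of endothelial or smooth muscle cells had an unadjusted p under 0.05. Of the immune markers, *C1qa* (0.0722, 0.109 and 0.0962 TPM against 0.715, 0.342 and 0.844 TPM; unadjusted p = 0.0261 from edgeR) and *Cd79a* (8.50, 7.03 and 6.56 TPM against 5.30, 5.25 and 4.86 TPM; unadjusted p = 0.0134 from edgeR) did, each with an adjusted p of 0.992. Of all genes tested, 4.68% had an unadjusted p under 0.05 in edgeR. The part of endothelial, smooth muscle and immune cells in the *Mef2c* transcripts was not tested.

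The partners and regulators of the MRFs were read from lists. Of the E proteins with which MRFs pair, *Tcf4* was at 260 TPM, *Tcf3* at 69.3 TPM and *Tcf12* at 68.3 TPM on average, and 0 of 3 had an unadjusted p under 0.05 (log2 fold changes −0.02, −0.02 and −0.14). Of 14 tested inhibitors and repressors of bHLH activity, 4 had positive and 10 negative log2 fold changes, with a median of −0.05. *Id3*, which binds E proteins and keeps them from DNA, was at 1260, 741 and 1120 TPM in Pax7WT and 869, 1070 and 851 TPM in Pax7KR. The Notch effectors *Hes1* and *Heyl* had log2 fold changes of 0.34 (SE 0.36) and 0.12 (SE 0.07). In this list 1 gene had an unadjusted p under 0.05, *Id4*, at 4.41 ± 1.24 and 3.40 ± 0.174 TPM. Its unadjusted p was 0.037 and its adjusted p 0.992 in edgeR.

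Of 12 factors upstream of the MRF genes, 4 had positive and 8 negative log2 fold changes (median −0.06). *Lbx1*, a homeobox gene of muscle progenitors, was at 61.2 ± 4.82 TPM in Pax7WT and 59.8 ± 1.69 TPM in Pax7KR. *Pax3*, the paralogue of *Pax7*, was at 8.28, 6.42 and 7.49 TPM against 6.29, 6.70 and 6.48 TPM (log2 fold change −0.29, unadjusted p = 0.032 from edgeR), and *Foxo3* was at 34.1, 34.9 and 41.3 TPM against 63.5, 62.1 and 39.6 TPM (0.53, unadjusted p = 0.0456 from edgeR). Both had an adjusted p of 0.992. Of 14 coregulators of MEF2 and MRF proteins, 10 had positive and 4 negative log2 fold changes (median 0.05) and 0 had an unadjusted p under 0.05. Their 3 most abundant members, *Smarcd3*, *Srf* and *Mamstr*, had log2 fold changes of −0.06, 0.12 and −0.07.

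The levels of 18 other fusion genes ranged widely, from 0.0221 TPM for *Adgrb3* to 314 TPM for *Cd81*. *Cd81*, *Rac1* and *Cdh15*, which act in cell adhesion and actin remodelling, were the 3 most abundant, and *Rac1* and *Cdh15* averaged 267 and 256 TPM. Of 15 such genes tested, 9 had positive and 6 negative log2 fold changes (median 0.04). The gene *Elmo2* alone had an unadjusted p under 0.05, at 20.2 ± 1.3 and 22.6 ± 0.489 TPM (unadjusted p = 0.0447, adjusted p = 0.992 from edgeR). Of 26 tested targets of differentiation, 13 had positive and 13 negative log2 fold changes (median 0.01). The acetylcholine receptor subunit *Chrnb1*, the intermediate filament gene *Des* and the synaptic *Rapsn* led them at 395, 298 and 104 TPM. In this list *Musk*, a receptor kinase of the neuromuscular junction, was at 34.8 ± 0.956 and 41.3 ± 3.00 TPM (unadjusted p = 0.03 from edgeR), and *Tnnt1*, slow troponin T, was at 86.6 ± 3.18 and 73.6 ± 7.39 TPM (unadjusted p = 0.0387 from edgeR), each with an adjusted p of 0.992. Genes named for an unadjusted p under 0.05 were chosen after their values were seen, and 0 genes of these lists were called by edgeR. The share of all genes tested that had an unadjusted p under 0.05 in edgeR was 4.68%.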

How the data were processed

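RNA-sequencing libraries of freshly isolated satellite cells from 3 Pax7WT and 3 Pax7KR samples were used. The authors quantified reads with salmon (version 1.3.0) against GENCODE transcripts of GRCm38 and deposited, per transcript, an estimated count that is not normalized. Effective lengths and TPM values were deposited beside it. A table of the authors' own comparison (fold changes and p-values) was not used. A decoy-aware index and a strand-keeping kit were used upstream, and the strand setting is not given in the sources used here.

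Estimated counts were summed per gene and rounded, and TPM were summed per gene. Gene names and coordinates came from GENCODE M21, older than the authors' release but also on GRCm38, in which 139791 of 140992 transcripts matched. The others held 0.592% to 0.634% of a library's reads. Genes and transcripts were kept where at least 2 libraries held 5 reads or more, and were tested by edgeR's quasi-likelihood test (version 4.0.16, TMM) on genotype alone, with Benjamini-Hochberg adjustment over all of them and a cut-off of 0.1. DESeq2 (version 1.42.0) and limma (version 3.58.1) gave alternatives in R (version 4.3.3). The main edgeR fit and DESeq2 without the length offset were tested on simulated data for genes and transcripts, and the other fits were not. For transcripts the simulated spread was smaller than that estimated here (biological coefficient of variation 75%). Single shares were compared with exact permutation tests over libraries, two-sided. Shared 31-base sequences were counted over all transcripts. Promoter windows were in RefSeq for 5 of the 10 genes, and protein sequences were not used here. Floors of 3 reads cover counting error only, and the 95% intervals come from the edgeR fit.

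The 10 genes always named, the 3 most abundant genes of each list, all E proteins, the first 3 markers of a list, and overlapping or neighbouring genes made up the naming rule. A gene and an exon that it would name are not reported here. The genes and lists were chosen with earlier results of these data known. Library pairs differed beyond sampling noise (chi-square per gene 10.2 to 23.3), which cannot show whether they came from separate animals. Each library counted once, as a biological replicate by the study's own statement.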

Additional observations from a re-analysis of the deposited data

How the results depend on the processing

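Over all settings tried, 0 of the 9 tested genes were called. Of 143 log2 fold changes recomputed for them, 136 kept their direction and 7 reversed. Among settings that kept all libraries, limma-voom turned *Mymk* to −0.009 and *Mef2c* to 0.018. With each library left out in turn, *Myf5* ranged from −0.011 to 0.079, *Myog* from −0.069 (without Pax7KR replicate 2) to 1.18, and *Mef2c* from −0.17 to 0.21. *Mef2a* stayed between −0.32 and −0.13, and its lowest adjusted p under any setting was 0.135, with no filter on low counts. Across all genes, DESeq2 called 30, DESeq2 with the length offset 45, edgeR with no filter 157, edgeR with a replicate block 13, and edgeR with a library left out between 1 and 32 (32 without Pax7KR replicate 3), against 0 in the reported test, and the cause was not tested. DESeq2 called 1 transcript of the 10 genes, Mef2c-212. On transcripts, edgeR called 0 as reported, with no filter, with a replicate block, at a cut-off of 0.05 and without each library, and the other settings were not run. Deviations of replicates with the same number correlated at 0.00176, 0.0447 and −0.0558, and those with different numbers at −0.0848 to 0.0818. These values cannot decide whether replicates with the same number were prepared together, which the labels do not say. *Mymk*, *Mymx*, *Myog*, *Myf6* and *Mef2c* had 152 reads per library or fewer, which limits what can be read. The part of depth beside the spread between libraries was not tested.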
